A study of Homo sapiens with 16 samples.

Results

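The 34 genes described here are enzymes of sugar breakdown and genes that answer to low oxygen, and they were taken by gene symbol from a table of 28167 symbols, in which all 34 were listed. They comprise 16 genes of glycolysis, its regulator PFKFB3 included, 3 genes of lactate and pyruvate handling, HIF1A with 2 of its oxygen sensors, and 12 further genes known as targets of hypoxia. Glycolysis turns glucose into pyruvate in the cytosol, and lactate dehydrogenase turns pyruvate into lactate. The hypoxia-inducible factor HIF-1, whose alpha subunit is encoded by HIF1A, raises many of the genes of both steps when oxygen is low, and the prolyl hydroxylases encoded by EGLN1 and EGLN3 mark it for breakdown when oxygen is present. Tumour cells often run glycolysis fast even with oxygen, and solid gastric tumours contain hypoxic regions. 

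RNA-seq was done on polyadenylated RNA of SNU719 and YCC10, 2 gastric cancer lines that carry Epstein-Barr virus, after lowering the transcription factors MYB or TCF7. The 16 libraries form 12 groups in 3 sets, and each set has its own control. In the MYB set, cells with siMYB (a small interfering RNA to MYB; genotype label MYB knockdown) stand against siCtrl cells (label WT), with 2 libraries per group and line. In the TCF7 set, siTCF7 (TCF7 knockdown) stands against siCtrl (WT), and in the CRISPRi set, where a guide RNA directs repression of a locus, sgMYB-E3 (MYB knockdown) stands against sgCtrl (WT), with 1 library per group and line. The SNU719 cells were kept in RPMI1640 medium and the YCC10 cells in EMEM, so medium and line cannot be told apart in any comparison of the lines. The labels name no oxygen level, time after knockdown or number of clones. Nothing says that libraries of a group came from separate cultures, so the p-values measure only the spread between these libraries, which may be technical.

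Levels are in FPKM, which scales fragments by transcript length and by the mapped fragments of the library. They carry no fragment counts, so depth is unknown, and a relative depth estimated from the lowest values ran from 0.603 to 1.31. Between 11176 and 12085 genes reached 1 FPKM in a library. The 6 epithelial marker genes summed to at least 4030 FPKM in every library, and all 17 fibroblast, endothelial and leukocyte markers stayed under 1 FPKM. The 4 MYB-set libraries numbered 1 listed 73.0 to 79.1% of 215 abundant short RNA genes at 0, against 41.9 to 60.5% in the other 12. MYB stood at 20.2% of control with siMYB in SNU719 and at 5.95% in YCC10, at 56% and 21.1% with siTCF7, and at 38.5% and 58.4% with sgMYB-E3. TCF7 stood at 29.7% and 18.3% of control with siTCF7.

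The promoter windows of PDK1, PFKP and HIF1A show the sequence before the RefSeq start of a gene that rose, one that fell and one that did not pass the test under siMYB in YCC10. PDK1, the kinase that shuts pyruvate dehydrogenase, had the largest rise there, PFKP (platelet-type phosphofructokinase) the largest fall, and HIF1A did not pass the test. Each line gives the 250 bases before the RefSeq start (GRCh38.p14), 5′ to 3′ on the gene's strand, the plus strand in all of them. The capitals mark matches, on either strand, to AACNG, a core of the MYB motif, or to ACGTG, the core of the HIF motif. PDK1 is chr2:172555123-172555372, PFKP is chr10:3067720-3067969 and HIF1A is chr14:61695263-61695512; these windows contain no base of an exon annotated by GENCODE 29. The PFKP window lies inside the span that GENCODE 29 gives for PFKP, which starts upstream at chr10:3066333.
PDK1: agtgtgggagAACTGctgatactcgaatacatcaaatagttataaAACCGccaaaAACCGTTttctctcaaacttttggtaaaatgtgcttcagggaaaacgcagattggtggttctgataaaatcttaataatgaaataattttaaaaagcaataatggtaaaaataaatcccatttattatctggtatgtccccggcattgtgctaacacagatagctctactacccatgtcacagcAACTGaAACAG
PFKP: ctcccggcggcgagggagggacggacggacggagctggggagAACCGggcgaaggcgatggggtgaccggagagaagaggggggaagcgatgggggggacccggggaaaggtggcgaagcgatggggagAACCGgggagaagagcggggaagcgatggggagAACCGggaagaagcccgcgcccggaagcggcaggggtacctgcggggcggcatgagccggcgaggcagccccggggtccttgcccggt
HIF1A: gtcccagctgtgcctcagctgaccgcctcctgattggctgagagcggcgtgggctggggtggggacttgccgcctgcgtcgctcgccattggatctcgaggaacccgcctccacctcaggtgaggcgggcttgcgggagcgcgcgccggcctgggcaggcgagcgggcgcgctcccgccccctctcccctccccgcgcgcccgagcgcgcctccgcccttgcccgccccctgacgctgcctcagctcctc
The PDK1 window held 6 matches to AACNG and the PFKP window 3, so both a gene that rose and a gene that fell had them, while the HIF1A window had 0. None of these windows held ACGTG. A promoter window was on hand for 31 of the 34 genes. Only 4 of these windows contain no base of an exon annotated by GENCODE 29, and the others overlap exons. AACNG occurred in 18 of the 31 (58.1%), against 70.6% of all 27305 promoter windows of this length. ACGTG occurred in 14 of the 31 (45.2%), against 18.7% of all windows, and LDHA had the most matches with 5. These are matches of letters, counted per strand, and not binding sites.

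The genes spanned a wide range of levels, and 5 of them were almost silent. GAPDH, the dehydrogenase in the middle of glycolysis, was the highest, with a median of 3239 FPKM over the 16 libraries, followed by the enolase ENO1 at 1048, the pyruvate kinase PKM at 943.8 and the aldolase ALDOA at 679.6. The sensors were low in comparison: EGLN1 had a median of 5.60 FPKM and EGLN3 of 15.1 FPKM. CA9, a carbonic anhydrase widely used as a hypoxia marker, was listed at 0 in 12 of 16 libraries and reached at most 0.0527 FPKM. The vasodilator peptide gene ADM, the lipase inhibitor gene ANGPTL4 and the mitophagy receptor gene BNIP3 stayed at or under 0.279 FPKM in every library. Together with ANKRD37, which reached at most 1.75 FPKM, these genes fell under the mean of 1 FPKM required for testing. The other 29 genes passed this filter in every comparison, HK1, ENO2 and ALDOC only through their level in SNU719; ALDOC fell under it when either siCtrl library of the MYB set in SNU719 was left out.

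**Figure D1:**
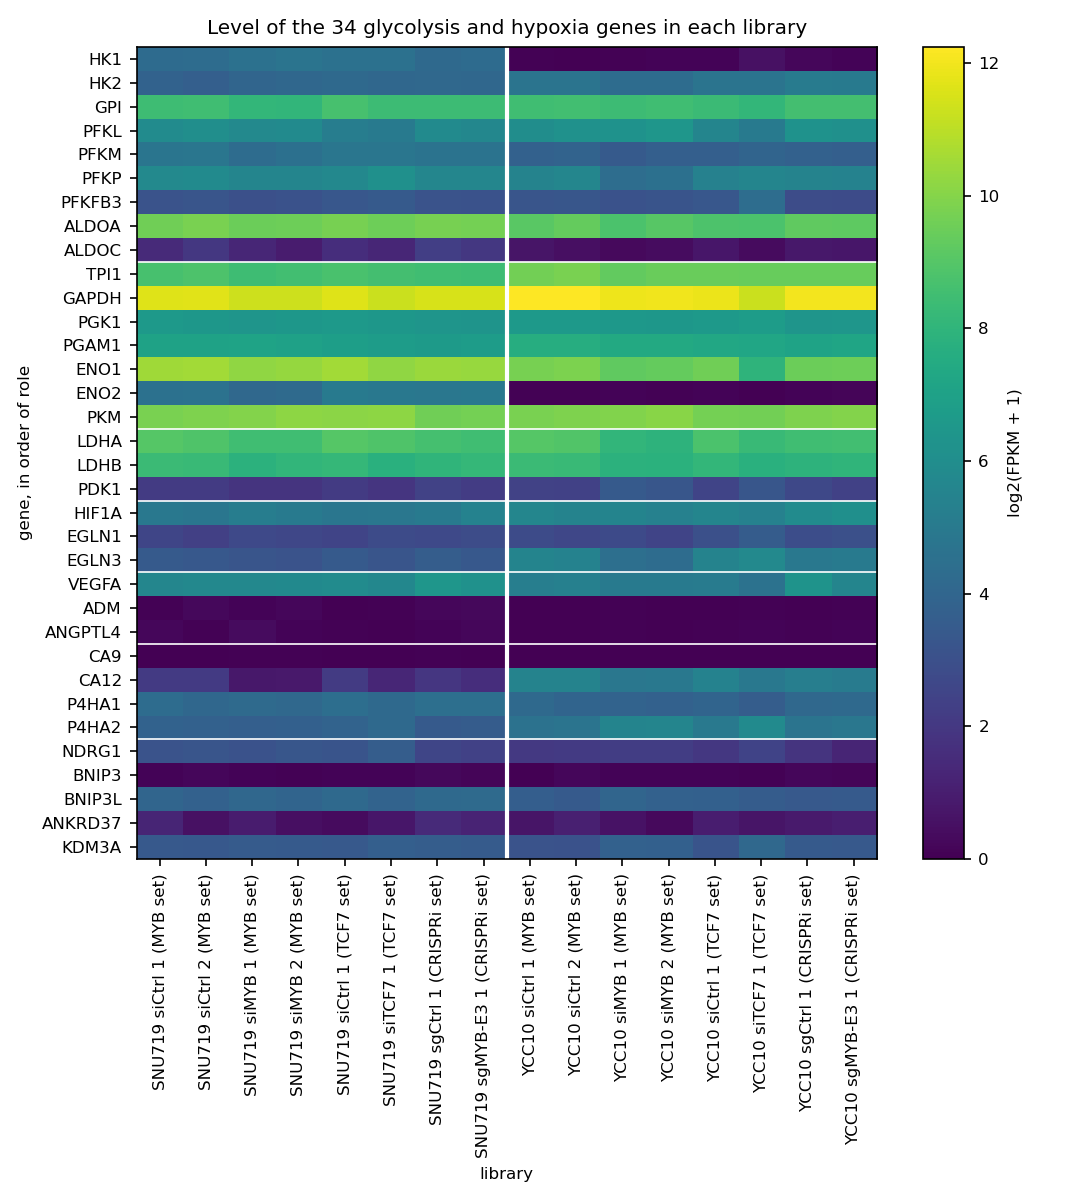
Level of each of the 34 genes (rows, in order of role, white lines between roles) in each of the 16 libraries (columns; SNU719 left and YCC10 right of the white bar), as log2(FPKM + 1). HK1 and ENO2 are dark in YCC10 only, CA12 is darker in SNU719, and ADM, ANGPTL4, CA9 and BNIP3 are dark throughout.

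The lines differed in which isozymes they used. The control libraries, 4 per line, were compared with limma on log2(FPKM + 1) with the set as covariate; adjusted p-values follow Benjamini and Hochberg over all genes tested, with a threshold of 0.05. Of the 29 genes, 11 were higher in YCC10 and 11 lower, where 30.4% of all 12187 genes were higher and 33.6% lower. The 11 lower include HK1, ENO2 and ALDOC, which had to differ because the line where they are high let them pass the filter; for these only levels are given. All 4 YCC10 controls lay above all 4 SNU719 controls for 8 of the 29 (21.0% of all genes) and below them for 8 (24.6% of all genes). Those below again include HK1, ENO2 and ALDOC, for which the filter had fixed the direction. The median difference was -0.03 for the 29 and -0.02 for all genes.

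Of the hexokinases, the first enzymes, HK1 and HK2 were both present in SNU719, and HK2 but hardly HK1 in YCC10. HKDC1, a further hexokinase gene outside the 34, read 14.1 to 25.1 FPKM in SNU719 controls and at most 0.111 in YCC10. HK1 stood at 17.2 to 22.4 FPKM (median 18.9) in the SNU719 controls and at 0.0233 to 0.157 FPKM in YCC10. As a share of HK1 plus HK2, HK1 made up 51.4 to 61.1% in SNU719 controls and 0.0921 to 0.476% in YCC10 controls. HK2 was the higher one in YCC10, with 25.0 to 32.8 FPKM against 12.2 to 17.1 FPKM in SNU719. ENO2, the enolase best known from neurons, showed the same split as HK1, with 22.3 to 31.0 FPKM in SNU719 and at most 0.1 FPKM in YCC10. ENO1 still made up at least 97.6% of ENO1 plus ENO2 in every SNU719 group. PFKM, the muscle-type phosphofructokinase, was also lower in YCC10 (-0.97). PGK1, GPI, PKM, LDHA and LDHB overlapped between the lines.

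The remaining isozymes split less sharply. ALDOA, the main aldolase, stood at 778.1 to 888.9 FPKM in SNU719 controls and at 457.9 to 648.4 in YCC10, and its lowest library was YCC10 siTCF7 at 436.5. ALDOC, the brain-type aldolase, stood at 1.72 to 3.84 FPKM in SNU719 controls and 0.409 to 0.705 in YCC10, so ALDOA supplied nearly the whole aldolase level in both lines. PFKM stood at 24.1 to 27.3 FPKM and 11.8 to 13.8, with the siMYB libraries at 19.1 and 21.8 in SNU719 and at 10.1 and 12.2 in YCC10. PFKL overlapped, at 36 to 66.2 FPKM and 46 to 75.1; the controls of the TCF7 set were its lowest in both lines. EGLN1 stood at 3.97 to 5.47 FPKM in SNU719 controls and 5.14 to 6.97 in YCC10, and its highest library was YCC10 siTCF7 at 10.8. P4HA1, the partner of P4HA2, stood at 15.8 to 21.4 FPKM and 14.4 to 17.2, with its lowest value of 11.1 in the same siTCF7 library. BNIP3L, a mitophagy receptor, stood at 12.8 to 17.3 FPKM and 9.58 to 12.4, with no overlap between the lines.

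CA12, a membrane carbonic anhydrase that handles acid at the cell surface, was the gene with the largest excess in YCC10. It stood at 36.6 to 43.7 FPKM there and at 2.87 to 3.42 FPKM in SNU719, a ratio of means of 13.1 and a log2 difference of 3.35 (SE 0.0465, adjusted p = 1.51e-07). EGLN3 stood at 29.1 to 45.3 FPKM in YCC10 and at 9.46 to 11.2 FPKM in SNU719 (log2 difference 1.86, SE 0.14, adjusted p = 7.29e-05). P4HA2, a subunit of collagen prolyl hydroxylase, and HIF1A were also higher in YCC10 (0.99 and 0.74), with no overlap of the controls. NDRG1, a stress gene, was lower in YCC10 (-1.02). The differences of EGLN1, PFKL and PFKP, all within 0.31 log2 units, were the ones that did not pass in every fit that left out 1 control library: PFKP failed only without the SNU719 siCtrl library of the TCF7 set (adjusted p = 0.0502), EGLN1 without any of 4 libraries (0.0661 to 0.0861) and PFKL without any of 6 (0.0908 to 0.117). VEGFA, the angiogenic growth factor, read differently by set: its controls in the CRISPRi set read 84.1 FPKM in SNU719 and 77.5 in YCC10, above the other controls at 48.8 to 58.1 and 33.1 to 39.6.

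In SNU719, siMYB was accompanied by lower levels of the lactate dehydrogenases, of several glycolysis enzymes and of CA12. With limma on 4 group means of the MYB set, 7 of the 29 genes fell and 2 rose, where 14.6% of all 12095 genes fell and 8.04% rose. The median log2 change was -0.16 over the 29 genes and -0.06 over all genes. CA12 read 3.18 and 3.23 FPKM in siCtrl and 0.742 and 0.763 FPKM in siMYB, 23.5% of control. Its log2 change of -1.26 (SE 0.046, adjusted p = 0.000226) understates the fall because of the added 1. LDHA, which favours lactate, read 508.6 and 473.6 FPKM in siCtrl and 360 and 363.5 in siMYB (log2 change -0.44, SE 0.0636, adjusted p = 0.00765). GPI, the isomerase that follows hexokinase, read 347.1 and 356.9 FPKM against 275.2 and 261.8 (log2 change -0.39, SE 0.051, adjusted p = 0.00574). The siMYB libraries lay below both controls for each of these genes, and the 3 calls passed in all 8 fits that left out 1 library.

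The other changes in SNU719 were smaller or rested on single libraries. ENO2 read 22.3 and 23.8 FPKM against 16.4 and 17.9 (log2 change -0.41, SE 0.0664, adjusted p = 0.0106); it did not pass without siCtrl replicate 2 (adjusted p = 0.0669) or siMYB replicate 1 (0.0553). LDHB read 325.8 and 313.9 FPKM against 231.5 and 266.5 (-0.36, adjusted p = 0.0222); it failed without either siCtrl library (0.105 and 0.0808) or siMYB replicate 1 (0.0597). GAPDH (-0.35) failed only without siCtrl replicate 2 (0.0504), and ENO1 (-0.26) failed in each of the 8 fits (0.0597 to 0.177). HK1 rose by 0.32 (adjusted p = 0.0178), failing without either siCtrl library or siMYB replicate 2 (0.0774 to 0.0839), and HK2 by 0.27 (0.0369), failing in each of the 8 (0.0602 to 0.161). The spread in this fit is shared by both lines, and HK1 and ENO2 read at most 0.0785 FPKM in its YCC10 libraries. Those libraries add almost no spread for these genes, so the p-values of HK1 and ENO2 may be too small. Both calls were lost with a pseudocount of 0.1. Quantile normalization left 3 of 29 genes past the threshold, with GPI, LDHA, LDHB and GAPDH among those lost. Of all changed genes 35.5% rose, but 51.2% did with median-of-ratios scaling and 47.1% with quantile normalization; of the 29 genes, 3 rose and 6 fell with the former, 1 rose and 2 fell with the latter. With same-numbered libraries as a replicate block, 19 of the 29 passed, 4 higher and 15 lower. Of all 12095 genes, 1690 rose and 3166 fell with the block. With quantile normalization 1080 and 1214 did, and with median-of-ratios scaling 1235 and 1178 of 12084.

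In YCC10, siMYB was accompanied by lower PFKP, EGLN3, LDHA and LDHB and by higher PDK1, P4HA2 and KDM3A. Of the 29 genes 11 fell and 3 rose, where 26.5% of all genes fell and 15.3% rose. The median log2 change was -0.21 over the 29 genes and -0.07 over all genes. PFKP, which commits sugar to glycolysis (ENSG00000067057.16, chr10:3066333-3137712, plus strand, GENCODE 29 on GRCh38), read 44 and 48.9 FPKM in siCtrl and 19.7 and 21.8 in siMYB, 44.7% of control (log2 change -1.12, SE 0.0734, adjusted p = 0.000316). Its share of the summed phosphofructokinases was 33.2 to 41.3% in YCC10 controls and 18.3 to 18.7% with siMYB, while PFKL, the liver type, did not pass (0.23, adjusted p = 0.131) and neither did PFKM (-0.23, 0.123). PFKL passed as higher with the replicate block (adjusted p = 0.00625), median-of-ratios scaling (0.0259) and quantile normalization (0.00771), and PFKM as lower with the block (0.0321). The other oxygen sensor, EGLN1, did not pass (-0.08, adjusted p = 0.686). EGLN3 (ENSG00000129521.13, chr14:33924231-34462774, minus strand) read 45.3 and 42.6 FPKM against 20.9 and 19 (-1.10, SE 0.0714, adjusted p = 0.000315). LDHA (ENSG00000134333.13, chr11:18394388-18408425, plus strand) read 516.5 and 485.9 FPKM against 261.4 and 243.3, 50.3% of control (-0.99, SE 0.0636, adjusted p = 0.00031). For PFKP, EGLN3 and LDHA the siMYB libraries lay far below both controls.

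The genes called as higher in YCC10 in the main fit, PDK1, P4HA2 and KDM3A, act after glycolysis or outside it. The glycolysis genes PFKL and PKM also passed as higher with median-of-ratios scaling and with quantile normalization, so this split depends on the scaling. PDK1 (ENSG00000152256.13, chr2:172555373-172608669, plus strand) read 4.32 and 4.22 FPKM in siCtrl and 10.2 and 8.64 in siMYB, 220% of control (log2 change 0.98, SE 0.0797, adjusted p = 0.000598). P4HA2 (ENSG00000072682.18, chr5:132191838-132295315, minus strand) read 23.4 and 24.9 FPKM against 45.1 and 46.8 (0.90, SE 0.0545, adjusted p = 0.000271), and its share of P4HA1 plus P4HA2 went from 57.5 to 67.5% in controls to 76.1 to 78.6%. KDM3A, a histone demethylase, read 7.76 and 7.54 FPKM against 12.8 and 12.4 (0.65, SE 0.049, adjusted p = 0.000481). CA12 fell to 65.7% of control (-0.59, adjusted p = 0.000519) and ENO1 to 71.1% (-0.49, adjusted p = 0.00258). These genes, with PFKP, EGLN3, LDHA, LDHB (-0.48) and HK2 (-0.38), passed in all 8 fits that left out 1 library. LDHB missed the threshold with quantile normalization (adjusted p = 0.0534).

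The other 4 falls in YCC10 were small and did not pass in every such fit. TPI1 (-0.33), the triose isomerase, failed without siCtrl replicate 2 (adjusted p = 0.102) or siMYB replicate 1 (0.104), and GAPDH (-0.27) failed without siMYB replicate 1 (0.0512). VEGFA (-0.27) failed without siCtrl replicate 2 (0.0937), siMYB replicate 1 (0.088) or siMYB replicate 2 (0.0645). The mutase PGAM1 (-0.21) failed without any of the 4 YCC10 libraries (0.0677 to 0.0977). HIF1A itself was not past the threshold, with 48.3 and 43.7 FPKM in siCtrl and 44.5 and 40.9 in siMYB, and neither was PGK1 at 93.5 and 93.5 against 91 and 88.3. Of all changed genes 36.6% rose, against 53.5% with median-of-ratios scaling and 50.3% with quantile normalization; of the 29 genes, 7 rose and 8 fell with the former, 5 rose and 9 fell with the latter. With the replicate block, 21 of the 29 passed, 6 higher and 15 lower. Of all 12095 genes, 2524 rose and 4285 fell with the block. With quantile normalization 2193 and 2166 did, and with median-of-ratios scaling 2576 and 2240 of 12084.

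**Figure D2:**
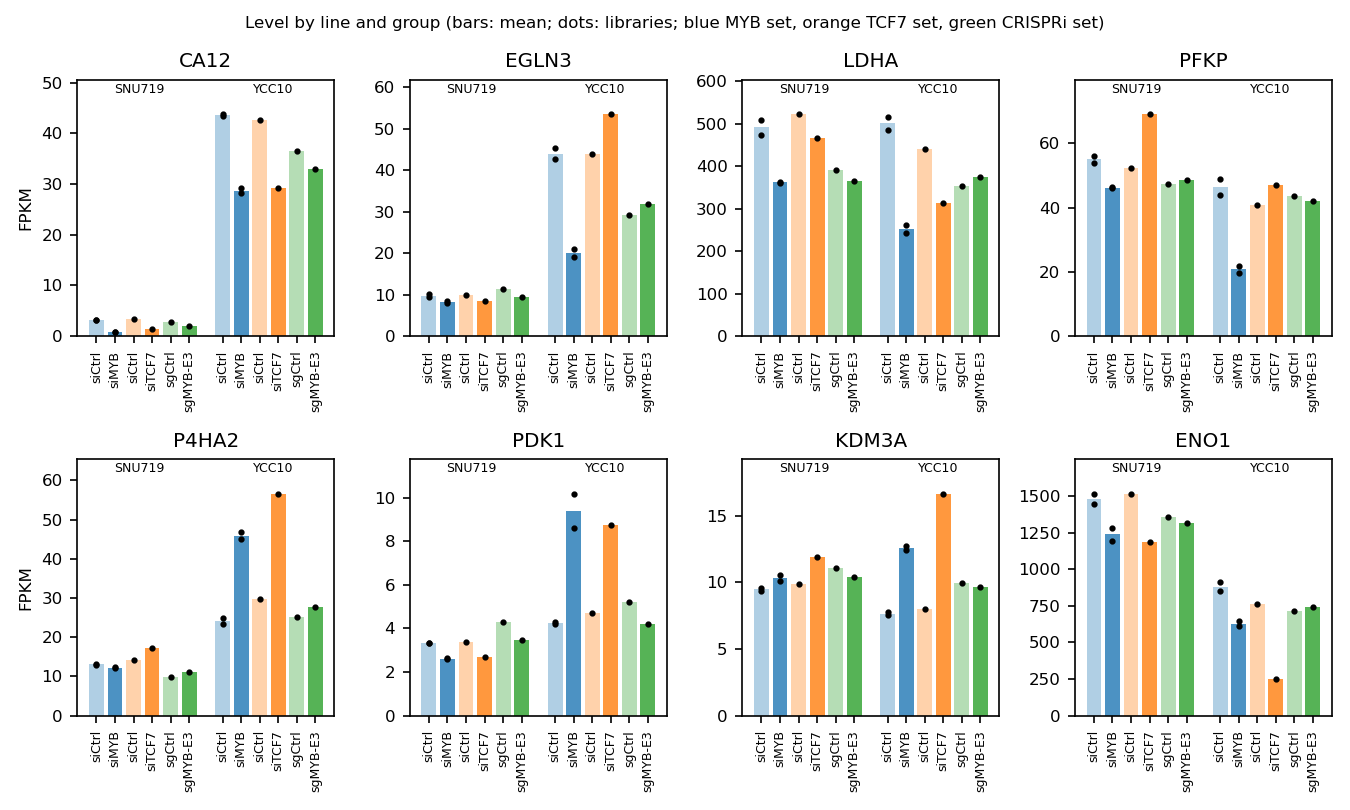
FPKM (vertical axes, from 0) of 8 genes in the 6 groups of each line; bars are group means and dots the libraries, 2 in the MYB set and 1 elsewhere. With siMYB the YCC10 libraries drop for EGLN3, LDHA and PFKP and climb for P4HA2, PDK1 and KDM3A, while the same genes in SNU719 move less; ENO1 is lowest in the YCC10 siTCF7 library at 248.6 FPKM.

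The siMYB effect differed between the lines for 11 of the 29 genes by the interaction in limma, 6 with a higher value in YCC10 (8.65% of all genes) and 5 with a lower value (10.3%). ENO2 is among the 6, but it was close to absent in YCC10, so its value only restates its fall in SNU719. MYB itself fell further in YCC10, by -1.26 log2 units relative to SNU719 (SE 0.156, adjusted p = 0.00671); its part in these differences was not tested. PDK1 had the largest gap: in SNU719 it read 3.31 and 3.33 FPKM in siCtrl and 2.58 and 2.62 in siMYB, where the change of -0.26 missed the threshold (adjusted p = 0.0659) but passed with the replicate block (0.0418) and with a pseudocount of 0.1 (0.0456). Its difference between lines was 1.24 (SE 0.113, adjusted p = 0.003). P4HA2 read 13.2 and 12.8 FPKM in SNU719 siCtrl and 12 and 12.4 in siMYB, and its difference between lines was 0.99 (SE 0.077, adjusted p = 0.00197). PFKP in SNU719 read 54 and 56.2 FPKM against 46.3 and 46.1, and EGLN3 10.1 and 9.46 against 8.43 and 7.89. Their differences between lines were -0.88 and -0.87 (adjusted p = 0.0059 and 0.00557).

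HK2 differed by -0.64 (adjusted p = 0.00961): it read 13.3 and 12.2 FPKM against 14.9 and 16.2 in SNU719, and 25 and 25.2 against 19.4 and 18.9 in YCC10. KDM3A differed by 0.54 (adjusted p = 0.00726), with 9.56 and 9.38 FPKM against 10.6 and 10.1 in SNU719. CA12 differed by 0.67 (adjusted p = 0.00337), but this depends on the pseudocount at its low SNU719 level: with 5 in place of 1 the difference was -0.02 (adjusted p = 0.837). With 0.1 the call stayed, and without a pseudocount CA12 stood at 23.5% of control in SNU719 and 65.7% in YCC10. These 7 differences passed in all 8 fits that left out 1 library. LDHA (-0.55, adjusted p = 0.0138) failed without SNU719 siCtrl replicate 2, YCC10 siCtrl replicate 1 or YCC10 siMYB replicate 2 (0.0515 to 0.0543), and ENO2 (0.45, adjusted p = 0.0276) failed in each fit but that without SNU719 siMYB replicate 2 (0.053 to 0.0962). GPI (0.32) and VEGFA (-0.37) failed in all 8 (0.053 to 0.109 and 0.0646 to 0.111). VEGFA read 48.8 and 51.4 FPKM against 52 and 55.8 in SNU719, and 36.5 and 39.6 against 30.9 and 31.8 in YCC10. GPI in YCC10 read 360.1 and 369.5 FPKM against 340.9 and 356.7. ENO2 stayed under 0.08 FPKM in YCC10 and could hardly fall there, so its difference is no comparison of the lines. Of all changed genes, 45.5% had the higher value in YCC10, against 55% with median-of-ratios scaling and 56.9% with quantile normalization.

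**Figure D3:**
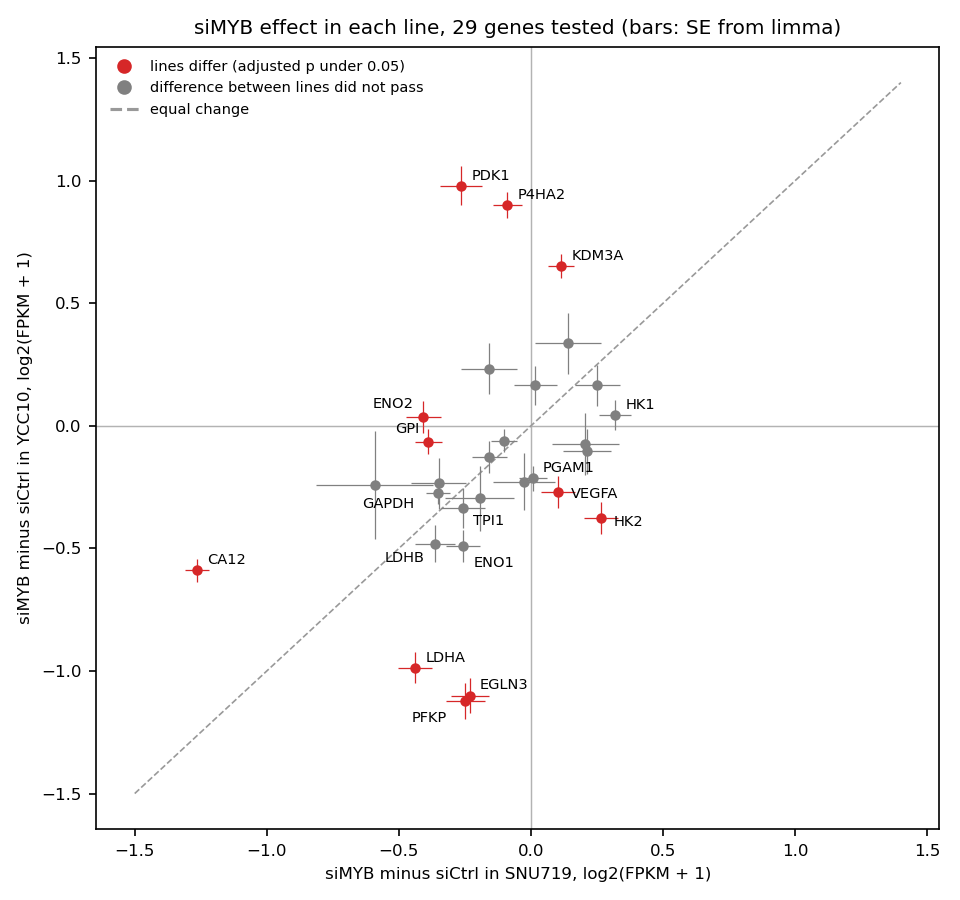
Change with siMYB in log2(FPKM + 1) in SNU719 (horizontal) against YCC10 (vertical) for the 29 genes tested; bars are limma standard errors, red points the 11 genes whose change differed between the lines, and the dashed line equal change. PDK1, P4HA2 and KDM3A lie above the dashed line and PFKP, EGLN3 and LDHA below it.

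Over both lines, with the line as covariate, 9 of the 29 genes fell and 2 rose, where 20.7% of all genes fell and 8.76% rose. The median log2 change was -0.13 for the 29 genes and -0.07 for all genes. CA12 (-0.93, SE 0.134, adjusted p = 0.00462), LDHA (-0.71, SE 0.115, 0.00669), LDHB (-0.42, 0.00462), ENO1 (-0.37, 0.00883), GAPDH (-0.31, 0.00318) and TPI1 (-0.30, 0.0142) fell and passed in all 8 fits that left out 1 library. PFKP (-0.69), EGLN3 (-0.67) and KDM3A (0.38) did not pass without any single YCC10 library of the MYB set (adjusted p from 0.0698 to 0.11); KDM3A also failed without SNU719 siMYB replicate 1 (0.0569). PFKM (-0.29) failed without 5 libraries, SNU719 siCtrl replicates 1 and 2, YCC10 siCtrl replicate 2 and siMYB replicate 1 of each line (0.0683 to 0.0863), and PKM (0.21) failed in all 8 (0.0622 to 0.12). Leaving out all 4 libraries numbered 1 leaves 1 library per group, so calls of that fit are not read. The fit of the remaining 12 libraries gave CA12 at -0.92, LDHA at -0.69 and MYB at -2.90. Of all changed genes 29.8% rose, against 51.5% with median-of-ratios scaling and 46.4% with quantile normalization. The 29 genes then gave 2 higher and 8 lower in either case. Of all genes, 1577 of 12084 rose and 1485 fell with the former, and 1348 and 1560 of 12095 with the latter.

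With siTCF7, ENO1, GAPDH, CA12 and LDHB were lower and PFKFB3 and NDRG1 higher. One effect shared by both lines was tested in a limma fit of all 16 libraries, whose spread comes from the MYB set and from the line differences of the siMYB, siTCF7 and sgMYB-E3 effects. Of the 29 genes 4 fell and 2 rose, where 9.24% of all 12290 genes fell and 6.54% rose; the median was -0.09 for the 29 genes and 0.00 for all genes. ENO1 read 762.9 FPKM in siCtrl and 248.6 in siTCF7 in YCC10, and 1513 and 1187 in SNU719 (log2 change -0.98, SE 0.228, adjusted p = 0.0236). GAPDH read 3773 and 2443 FPKM in YCC10, and 3204 and 2440 in SNU719 (-0.51, SE 0.0643, adjusted p = 0.00547). CA12 read 42.7 and 29.1 FPKM in YCC10, and 3.42 and 1.46 in SNU719 (-0.69, SE 0.179, adjusted p = 0.0333). LDHB was lower in both lines (-0.35, adjusted p = 0.0223).

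PFKFB3, whose product makes the activator of phosphofructokinase, read 8.92 FPKM in siCtrl and 19.8 in siTCF7 in YCC10, but 9.14 and 10 in SNU719 (0.59, SE 0.171, adjusted p = 0.0464). NDRG1 read 3 and 4.5 FPKM in YCC10, and 8.12 and 11.1 in SNU719 (0.43, SE 0.109, adjusted p = 0.0313). Without either YCC10 library of this set the siTCF7 effect rests on 1 library per group, so calls of those fits are not read. ENO1 then read -0.35 and PFKFB3 0.12, against -0.98 and 0.59 in the main fit. The same limit holds without either SNU719 library, so none of the 6 calls was tested in 1 line alone. CA12 did not pass when any of the 4 CRISPRi libraries was left out. PFKFB3 did not pass when any MYB-set or CRISPRi library was left out. With the siMYB effect free to differ between lines, an alternative chosen after seeing the data, 12 of the 29 passed, KDM3A, P4HA2, EGLN1, PFKP, GPI and LDHA in addition. Of all 12290 genes, 1407 were then higher and 1621 lower, against 804 and 1135 in the main fit. With the replicate block 3 of the 29 passed, GAPDH, LDHB and NDRG1, and 643 of all genes were higher and 845 lower.

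The genes that rose with siMYB in YCC10 also read higher there with siTCF7, from 1 library per group and with no test. PDK1 read 4.7 FPKM in siCtrl and 8.77 in siTCF7, P4HA2 29.8 and 56.6, and KDM3A 8.04 and 16.7. In SNU719 the same pairs were 3.39 and 2.67 for PDK1, 14.2 and 17.3 for P4HA2, and 9.86 and 11.9 for KDM3A. EGLN3 and PFKP, which fell with siMYB in YCC10, read 44 and 53.4 FPKM and 40.7 and 47 FPKM there with siTCF7. LDHA read 439.7 and 312.1 FPKM in YCC10 and 521.8 and 466.8 in SNU719. MYB also read lower in these siTCF7 libraries, and its part in these values was not tested.

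**Figure D4:**
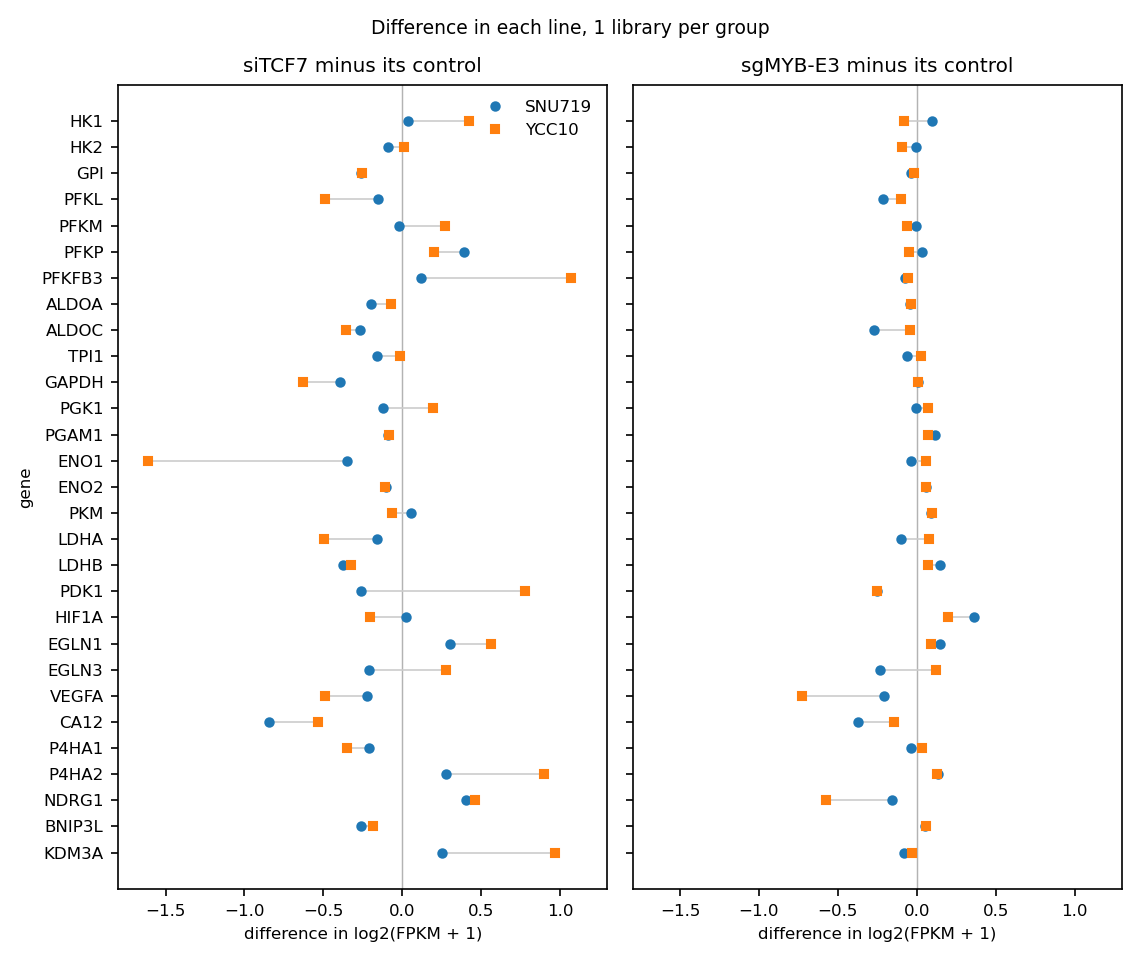
Difference from control in log2(FPKM + 1) in SNU719 (circles) and YCC10 (squares) for the 29 genes tested, with siTCF7 (left) and sgMYB-E3 (right); each point is 1 library minus 1 library, so no error can be drawn. With siTCF7 ENO1 in YCC10 lies farthest left at -1.61 and PFKFB3 farthest right at 1.07, while with sgMYB-E3 all genes but VEGFA and NDRG1 in YCC10 lie within 0.5 of 0.

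With sgMYB-E3, 0 of the 29 genes passed in limma, where 0.0163% of all genes were higher and 0.0244% lower. At an unadjusted p under 0.05, HIF1A was higher and VEGFA and NDRG1 were lower. The share of all genes at that unadjusted threshold was not counted, so only their values are given. VEGFA read 84.1 FPKM in sgCtrl and 72.6 in sgMYB-E3 in SNU719, and 77.5 and 46.3 in YCC10 (-0.47, 95% interval -0.80 to -0.14, unadjusted p = 0.0108). NDRG1 read 4.83 and 4.24 FPKM in SNU719, and 2.63 and 1.44 in YCC10 (-0.37, unadjusted p = 0.00861). HIF1A read 32.3 and 41.8 FPKM in SNU719, and 58.9 and 67.7 in YCC10 (0.28, unadjusted p = 0.0473). The median difference over the 29 genes was -0.03 in SNU719 and 0.01 in YCC10. The shared spread of this fit holds the line differences of the other knockdowns, so a missed threshold does not show that these genes were unaffected.

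The siMYB and sgMYB-E3 effects, each against its own controls, differed for 1 of the 29 genes. LDHB was lower with siMYB (log2 difference -0.53, SE 0.0978, adjusted p = 0.0382), where 1.06% of all genes were lower and 0.496% higher with siMYB. It read 253.9 and 281.8 FPKM in SNU719 and 242.6 and 254.5 in YCC10 in sgCtrl and sgMYB-E3. This call failed in 11 of 16 fits that left out 1 library, namely without any CRISPRi library (0.249 to 0.252) or any MYB-set library but SNU719 siMYB replicate 2 (0.0585 to 0.0919). LDHA had the largest difference, -0.70 (95% interval -1.14 to -0.26), but missed the threshold (adjusted p = 0.109). With the siMYB effect free to differ between lines, again chosen after seeing the data, 6 genes passed, all lower with siMYB: LDHB, LDHA, CA12, EGLN3, GAPDH and PFKP. Of all 12290 genes, 353 were higher with siMYB and 784 lower in that fit, against 61 and 130 in the main fit. Of all changed genes 31.9% were higher with siMYB, against 55.3% with median-of-ratios scaling and 50% with quantile normalization.

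The siMYB and siTCF7 effects differed for 0 of the 29 genes in limma, where 2.55% of all genes were lower and 1.23% higher with siMYB. At an unadjusted p under 0.05, 5 were lower with siMYB and 2 higher. The share of all genes at that unadjusted threshold was not counted, so these numbers are not read as a result. PFKP had the largest difference, -0.98 (95% interval -1.60 to -0.37, adjusted p = 0.0749), followed by PFKFB3 at -0.74 (-1.21 to -0.26, adjusted p = 0.0803) and EGLN3 at -0.70 (-1.36 to -0.04, adjusted p = 0.194). Without either SNU719 library of the TCF7 set the siTCF7 effect rests on 1 library per group, so calls of those fits are not read. With the siMYB effect free to differ between lines 2 genes passed, PFKP and EGLN3. Of all 12290 genes, 500 were higher with siMYB and 1118 lower in that fit. Of all changed genes 32.5% were higher with siMYB, against 48.9% with median-of-ratios scaling and 47.5% with quantile normalization.

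Further genes of the same pathways, 91 in 7 lists, were read in the same fits, and 70 of them were tested in the MYB set. With siMYB, 7 rose and 19 fell in SNU719, and 11 rose and 14 fell in YCC10; over all genes the shares were 8.04% and 14.6% in SNU719 and 15.3% and 26.5% in YCC10, so in YCC10 the lists were near or under the background. In SNU719 the pentose phosphate pathway had 4 of 7 tested genes lower and the pyruvate entry and dehydrogenase list 4 of 11 lower and 1 higher, against 14.6% of all genes lower. In YCC10 the pentose phosphate list had 1 higher and 1 lower, and the pyruvate list 4 of 11 lower, against 26.5% of all genes lower. Of the 6 tested glucose and lactate carriers, 2 rose in SNU719 and 3 in YCC10. SLC2A3, a glucose transporter, read 0.357 and 0.443 FPKM in SNU719 siCtrl and 4.42 and 4 in siMYB (log2 change 1.89, SE 0.093, adjusted p = 0.000319), and in YCC10 2.07 and 2.05 against 3.37 and 2.8 (difference between lines -1.48, adjusted p = 0.00288). ENO3, the muscle enolase, rose in SNU719 (0.71, adjusted p = 0.0266), but not without SNU719 siCtrl replicate 1 or 2, SNU719 siMYB replicate 2 or YCC10 siMYB replicate 1 (0.0518 to 0.116).

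In YCC10 the largest changes of these further genes with siMYB were in ERO1A, PGM1 and PDHX. ERO1A, an oxidase of the endoplasmic reticulum induced by hypoxia, read 71.2 and 61.5 FPKM in siCtrl and 23.9 and 20.8 in siMYB (-1.53, SE 0.145, adjusted p = 0.000906), and with siTCF7 76.2 and 129.1. Its difference between lines was -1.26 (adjusted p = 0.0133) and failed without YCC10 siCtrl replicate 1 (0.053) or siMYB replicate 2 (0.0508). PGM1, which links glycogen to glycolysis, read 9.67 and 9.74 FPKM against 23.5 and 24.2 (1.22, adjusted p = 0.00026; difference between lines 1.38, adjusted p = 0.00176). Its YCC10 controls differed by set, with 9.09 FPKM in the TCF7 set and 28.5 in the CRISPRi set, the latter above its siMYB level. PDHX, a subunit of pyruvate dehydrogenase, read 23.9 and 22.7 FPKM against 10.3 and 9.75 (-1.14, adjusted p = 0.00021). The HIF factors and oxygen sensing list had 1 of 12 tested genes higher and 2 lower in YCC10, no larger a share than over all genes.

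With siTCF7, 7 of 69 tested genes of these lists rose and 4 fell, and 5 of the 7 that rose were in the list of other hypoxia targets, which has 22 tested genes; 6.54% of all genes rose and 9.24% fell. KCTD11 (0.97), INSIG2 (0.93) and the pentose phosphate enzyme gene PGD (-0.91) had the largest changes. Without either YCC10 library of that set these effects rest on 1 library per group, so calls of those fits are not read. Of the further genes, WSB1 was higher with siMYB than with sgMYB-E3 (0.76, adjusted p = 0.0166; not without any CRISPRi library, 0.109 to 0.176). Between the lines, 29 of the 69 were higher in YCC10 controls and 25 lower, against 30.4% and 33.6% of all genes. The glycogen branching enzyme gene GBE1 read 5.46 to 5.75 FPKM in SNU719 controls and was listed at 0 in all YCC10 controls, and the gluconeogenic enzyme gene FBP1 read at most 0.0652 FPKM in SNU719 and 9.3 to 13.8 in YCC10.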

How the data were processed

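RNA-seq libraries of SNU719 and YCC10 were prepared with a stranded polyadenylated RNA kit, per the labels' protocols. The authors deposited 1 table of FPKM values, 33648 rows by 16 libraries; their processing notes name bcl2fastq 2.20.0, HISAT2 2.1.0, Cufflinks 2.2.1 and hg38. No source used here gives settings or annotation. The table held 0 columns of other samples. Rows of a symbol were summed (2097 symbols; among the 34 genes only GPI, on 2 rows of nearly equal value, so its level per length may be too high). Gene and isozyme reads that map to more than 1 gene may be shared out by the quantification, as GAPDH and ENO1 have many pseudogenes.

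limma 3.58.1 (R 4.3.3; lmFit, eBayes with trend) took log2(FPKM + 1) of every gene whose FPKM averaged 1 or more across the fitted libraries, and was tested on simulated data first; plots and levels used Python 3.11.15. P-values were adjusted by Benjamini-Hochberg over all genes tested, with a threshold of 0.05. Differences are on this log2 scale and understate changes of low genes. Residual degrees of freedom were 4 for the siMYB effects per line and their difference, 5 over both lines, 7 for the 16-library fit and 4 for the controls. Single libraries there are assumed to vary as the others do.

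Same-numbered libraries deviated from their group means together, with r of 0.342 and 0.438 in the same line and 0.326 to 0.411 between lines; no label says that a number marks a batch, so the main fits have no replicate block, and 19 of the 29 genes (SNU719) and 21 (YCC10) passed with it. Of all 12095 genes, 1690 rose and 3166 fell with the block in SNU719, and 2524 and 4285 in YCC10. Alternatives were pseudocounts of 0.1 and 5, no filter, median-of-ratios and quantile scaling, the largest row of a symbol and leaving out libraries. Members past the threshold were named by size, and of 91 further genes up to 3 per comparison. The result of 1 further gene is not reported here. Members and lists were chosen with earlier results of these data known.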

Additional observations from a re-analysis of the deposited data

Results flagged for a closer look

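Under siMYB the change in YCC10 differed from that in SNU719, by the interaction in limma, for 11 of the 29 genes, for MYB and for 3 of the further genes named. The difference, YCC10 minus SNU719 in log2 units, was -0.876 for PFKP, -0.868 for EGLN3, -0.641 for HK2, -0.548 for LDHA and -0.373 for VEGFA. It was 0.325 for GPI, 0.445 for ENO2, 0.538 for KDM3A, 0.674 for CA12, 0.991 for P4HA2 and 1.24 for PDK1. The value of ENO2 only restates its fall in SNU719, since it stayed under 0.08 FPKM in YCC10. It was -1.48 for SLC2A3, -1.26 for ERO1A, -1.26 for MYB and 1.38 for PGM1. Adjusted p-values ran from 0.00176 to 0.0421.

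With siTCF7, PDK1 went down in SNU719 and up in YCC10, 1 library per group, and both differences exceeded 0.25 log2 units. The gap of 1.04 was not tested.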

How the results depend on the processing

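Counts are members past the threshold, of 29 tested unless said otherwise. In SNU719 the siMYB count of 9 became 19 with the replicate block and 3 with quantile normalization, and ran from 3 to 9 with 1 library left out. In YCC10 the count of 14 stayed within 1.5 times in all alternatives run (21 with the block). Over both lines the 11 became 6 with no filter and 0 in the 16-library fit without the libraries numbered 1, and 6 to 10 with 1 library left out. The line difference of 11 ran from 7 to 9 with 1 left out (16 with the block); CA12 in it turned from 0.67 to -0.0184 with a pseudocount of 5. The siTCF7 count of 6 became 3 with the block, 1 with no filter, 3 with quantile normalization and 12 with the siMYB effect per line. Without a library of the TCF7 set its effect rests on 1 library per group, so calls of those fits are not read. For siMYB against sgMYB-E3 the 1 became 0 with the block, 2 with a pseudocount of 5, 0 with no filter, 0 with median-of-ratios scaling, 0 with quantile normalization and 6 with the siMYB effect per line, and 0 to 2 with 1 left out. For siMYB against siTCF7 the 0 became 2 with the effect per line. Counts over all genes changed with these settings too. With the block, 1690 of 12095 rose and 3166 fell in SNU719, and 2524 and 4285 in YCC10. With quantile normalization 1080 and 1214 did in SNU719. Over both lines 894 of 20662 rose and 2054 fell with no filter. For the line difference, 1943 of 12095 were higher and 2409 lower with the block. For siTCF7, 643 of 12290 were higher and 845 lower with the block. With no filter 554 and 714 of 21919 were, and with quantile normalization 946 and 1121 of 12290. With the siMYB effect per line, 1407 of 12290 were higher and 1621 lower for siTCF7. For siMYB against sgMYB-E3 that fit gave 353 and 784, and for siMYB against siTCF7 500 and 1118. For siMYB against sgMYB-E3 the block gave 20 and 17, a pseudocount of 5 gave 53 and 110, and quantile normalization 66 and 66. No filter gave 39 and 72 of 21919 there, and median-of-ratios scaling 88 and 71 of 12272. The cause of these changes was not tested. The sgMYB-E3 count stayed at 0 and the control count of 22 ran from 19 to 23. Of 105 single-gene calls, other settings gave 782 values: 693 kept the call and direction, 88 no longer passed and 1 changed sign; leaving out 1 library gave 974, of which 770 kept it, 204 no longer passed and 0 changed sign. FPKM carries no counts, so no limit from depth can be given.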
